A study of Mus musculus with 3 samples.

Results

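The genes described here are 47 genes of Toll-like receptor, NF-kB and cytokine signalling, out of 21887 mouse coding genes, listed by name as members of these pathways. The 16 cytokine and receptor genes (9 ligands, 7 receptors) were set against 31 intracellular genes: 14 adaptors, kinases and ubiquitin ligases, 5 NF-kB inhibitors, 5 NF-kB subunits and 7 JAK, STAT and SOCS genes. For each gene, the regions that the authors assigned to it in Runx1 ChIP-seq of mouse spinal cord were collected. Replicate 1 assigned 1 region to the 47 genes, replicate 2 assigned 1 and replicate 3 assigned 28.

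ChIP-seq sequences DNA fragments precipitated with an antibody, here a rabbit polyclonal antibody against Runx1, a transcription factor that binds DNA and is known for its role in blood and myeloid lineages. The data were 3 replicates of 1 group, male C57BL/6J mice aged 8 to 10 weeks, with no treatment or genotype named in the labels used here. Each replicate was 1 immunoprecipitation of about 10 µg of chromatin from 10 pooled cords with 9 µg of antibody, after fixation of cells from pools of 5 cords in 1% formaldehyde for 10 min. The labels do not say whether the replicates came from separate sets of mice, so a value found in each of them may still share animals. Cells of the whole cord were used without a sort, so how many cells carried bound chromatin and how much each carried cannot be told apart.

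Toll-like receptors sense microbial and damage-derived molecules and recruit the adaptor MyD88, which passes the signal through IRAK kinases to the ubiquitin ligase TRAF6. Ubiquitin chains made there gather the kinase TAK1 with its TAB partners and the IkB kinase complex, IkB proteins are degraded, and freed NF-kB dimers enter the nucleus to switch on cytokine genes and their own inhibitors. Secreted cytokines then act on neighbouring cells, many of them through JAK kinases and STAT transcription factors that SOCS proteins restrain. In the spinal cord, microglia are a well-known source of these cytokines.

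The 3 lists were of very different size, with 451, 1641 and 13194 regions in replicates 1, 2 and 3, and replicate 3 held 29.3 times as many as replicate 1. Markers of the tissue's cell types were checked in lists of 10 genes each: replicate 3 had regions at 10 of 10 oligodendrocyte, 9 of 10 neuronal, 4 of 10 astrocyte and 0 of 10 blood and vessel genes. Replicate 2 had 8, 2, 1 and 0, and replicate 1 had 0, 1, 0 and 0. Over all coding genes, 31.5% had a region in replicate 3, 5.16% in replicate 2 and 1.51% in replicate 1. With a fold over local background of at least 5 in replicate 3, the marker counts in the same order were 10, 1, 1 and 0, against 8.49% of all coding genes. Most neuronal and astrocyte marker genes with a region were therefore below that fold. Of the microglial markers, Sall1 had a region in replicates 2 and 3, while the defining genes P2ry12, Tmem119, Cx3cr1 and Csf1r had 0 regions in each list. A region marks precipitated chromatin and is no measure of expression, and what these marker counts contribute to the values below was not tested.

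Promoter sequences of 6 of these genes are shown as examples: Rela, the one gene with a region in all 3 replicates, then Nfkbia, Tnfaip3, Traf6 and Rel, which had a region in replicate 3, and Il6, a cytokine gene with 0 regions. The first was picked by the naming rule. The other 5 were chosen after their values were seen, so they do not stand for all genes with a region. They are RefSeq sequences of build GRCm38.p6 on the gene's own strand, 5′ to 3′, from up to 250 bases before the RefSeq start site and ending before the first transcribed base. In Rela (chr19:5637291-5637441), capitals mark the bases inside the called regions of all 3 replicates. In the others, capitals mark matches to TGTGGT (a core of the Runx motif), CACGTG (the E-box bound by many helix-loop-helix factors) or the NF-kB consensus, searched on both strands.
Rela: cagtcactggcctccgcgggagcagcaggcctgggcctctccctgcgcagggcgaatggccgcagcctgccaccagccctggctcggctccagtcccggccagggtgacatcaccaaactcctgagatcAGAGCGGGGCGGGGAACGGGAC
Nfkbia: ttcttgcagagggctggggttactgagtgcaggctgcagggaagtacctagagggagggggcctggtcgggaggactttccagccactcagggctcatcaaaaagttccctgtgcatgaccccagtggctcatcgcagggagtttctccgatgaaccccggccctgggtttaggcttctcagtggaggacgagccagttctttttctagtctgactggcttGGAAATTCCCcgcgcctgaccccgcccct
Tnfaip3: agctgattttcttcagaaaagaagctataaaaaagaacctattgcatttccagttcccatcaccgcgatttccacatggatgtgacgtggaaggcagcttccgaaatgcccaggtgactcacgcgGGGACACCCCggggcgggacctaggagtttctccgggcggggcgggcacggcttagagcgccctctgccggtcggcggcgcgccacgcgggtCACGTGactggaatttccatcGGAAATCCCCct
Traf6: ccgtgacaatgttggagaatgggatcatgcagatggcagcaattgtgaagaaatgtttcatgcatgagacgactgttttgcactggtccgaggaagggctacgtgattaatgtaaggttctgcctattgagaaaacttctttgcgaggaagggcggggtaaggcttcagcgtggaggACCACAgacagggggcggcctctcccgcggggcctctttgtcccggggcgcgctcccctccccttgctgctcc
Rel: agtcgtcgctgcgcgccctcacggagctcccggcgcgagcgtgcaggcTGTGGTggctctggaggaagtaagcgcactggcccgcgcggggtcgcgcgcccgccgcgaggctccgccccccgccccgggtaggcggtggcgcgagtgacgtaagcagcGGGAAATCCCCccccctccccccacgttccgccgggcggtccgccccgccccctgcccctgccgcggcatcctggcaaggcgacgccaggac
Il6: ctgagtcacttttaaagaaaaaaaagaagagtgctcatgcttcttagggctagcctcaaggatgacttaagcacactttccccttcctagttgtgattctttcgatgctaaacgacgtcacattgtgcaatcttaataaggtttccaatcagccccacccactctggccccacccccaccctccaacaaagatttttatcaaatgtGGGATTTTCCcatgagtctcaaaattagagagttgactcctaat

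Nfkbia (chr12:55492648-55492897, minus strand), which encodes the NF-kB inhibitor IkB alpha, held the NF-kB match GGAAATTCCC with its first base at -29 from the start site, inside the replicate 3 region. Tnfaip3 (chr10:19015411-19015660, minus strand), which encodes a ubiquitin-editing enzyme that ends NF-kB signalling, held NF-kB matches at -125 and -12 and CACGTG at -33, and all 3 lay inside its region. The TGTGGT match of Traf6 (chr2:101678170-101678419, plus strand) read ACCACA on the gene's strand at -73 and lay inside its region. Rel (chr11:23770970-23771219, minus strand) held TGTGGT at -202 and 2 overlapping NF-kB matches at -92 and -91, all outside its region, which covered 14 of the printed bases. Il6 (chr5:30012864-30013113, plus strand) held an NF-kB match at -44 and no region; the long non-coding RNA gene A230098N10Rik spans the same bases. Rela held 0 of these matches in the printed bases.

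These matches are descriptions of letters and not of binding. Over 21263 RefSeq promoter windows of coding genes, each of 300 bases with 50 past the start, 15.0% held TGTGGT, 7.44% TGCGGT, 7.84% CACGTG and 9.25% the NF-kB consensus. In the 5643 windows that a replicate 3 region overlapped, the shares were 10.9%, 11.5%, 13.0% and 9.98%. TGTGGT was thus present in fewer of the overlapped windows than of all windows, while TGCGGT and CACGTG were present in more, as a description of the whole list. Counted together, TGTGGT or TGCGGT was present in 21.6% of all windows and 21.3% of the overlapped ones, so the joint share hardly differed. Promoter windows were matched for 37 of the 47 genes, which is 78.7% and too few to compare motif content between the gene classes.

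Regions lay at the intracellular genes more often than at the cytokine and receptor genes. In replicate 3, 17 of 31 intracellular genes (54.8%) and 1 of 16 cytokine and receptor genes (6.25%) had an assigned region, and over all coding genes the share was 31.5%. Together 18 of the 47 genes (38.3%) had one, which is near the share of all coding genes. Replicates 1 and 2 each had a region at 1 of 31 intracellular genes (3.23%) and 0 of 16 cytokine and receptor genes, where all coding genes had 1.51% and 5.16%. The contrast therefore rests on replicate 3, with 1 gene against 0 in the other lists, and it carries no replicate error.

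**Figure D1:**
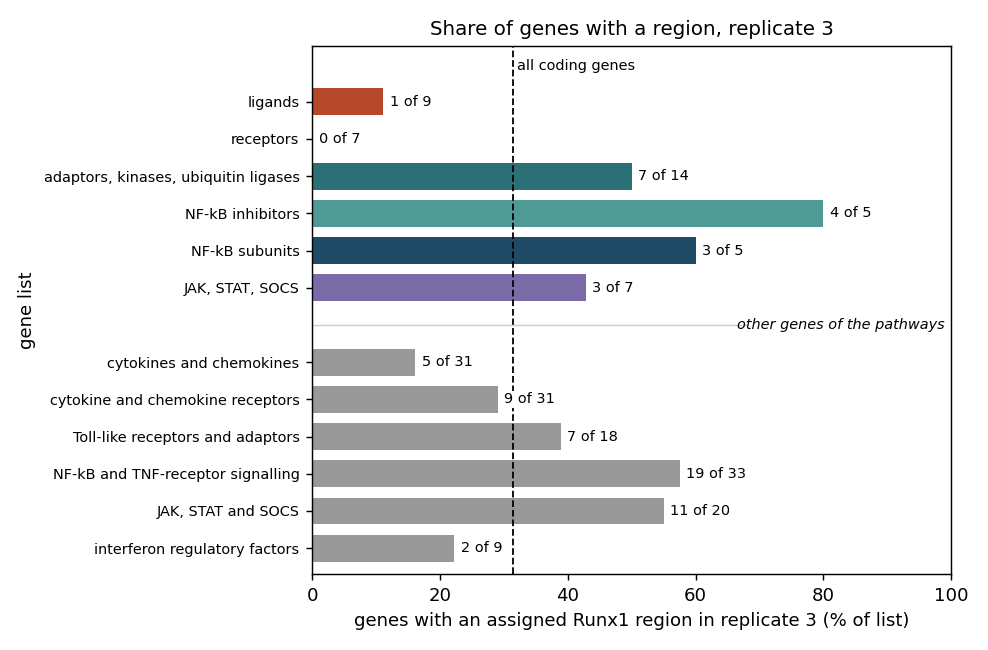
Share of the genes of each role (percent, horizontal axis) with a region assigned in replicate 3, with the count of genes at each bar and the share of all coding genes as a dashed line. Inhibitors reached 80.0% (4 of 5) and receptors 0 of 7, against 31.5% of all coding genes.

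The strength of a region is given as the authors' fold, the ratio of fragments at its highest summit to the local background, and as the percentile of that fold within its own list. Among the ligands, 1 of 9 had a region in replicate 3 (11.1%). That gene was Ccl2 (ENSMUSG00000035385), a chemokine that draws monocytes. Its region in replicate 3 (chr11:82035562-82035805, GRCm38) covered the start site and had a fold of 3.00 from a pileup of 19 fragments at its summit (exact 95% Poisson interval 11.4 to 29.7, counting error only). That fold stood at the 14.7 percentile of its own list, so the region was among the weaker ones. Tnf, Il1b, Il6, Il10, Tgfb1, Ccl3, Ccl4 and Cxcl10 had 0 regions in the 3 lists.

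All 7 receptor genes among the 47 (Tlr2, Tlr3, Tlr4, Tlr7, Tlr9, Tnfrsf1a and Ifngr1) had 0 regions in the 3 lists. The gap to the nearest region of replicate 3 ran from 20800 bp at Tlr9, a sensor of unmethylated DNA, to 1222314 bp at Tlr4, the receptor for bacterial lipopolysaccharide. Among the 8 ligands with no assigned region, Tgfb1, an anti-inflammatory cytokine, had the closest one, 5978 bp away at B9d2. The nearest region to Tnf, the prototype inflammatory cytokine, was 33591 bp away at Atp6v1g2, and the nearest to Il1b was 66544 bp away. No assigned region means that nothing passed the authors' threshold at this depth, which is unknown, and weaker binding was not detectable.

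Of the 14 adaptors, kinases and ubiquitin ligases, 7 had a region in replicate 3 (50%). The 3 genes of the TAB family were all among them. Tab1 (ENSMUSG00000022414), the activating partner of TAK1, had the highest pileup of the 28 regions, 49 fragments (interval 36.3 to 64.8), with a fold of 4.58 at the 71.9 percentile (chr15:80133030-80133475). A second Tab1 region 3′ of it had a fold of 4.44. Tab2, which ties TAK1 to ubiquitin chains, had regions with folds of 4.19 and 3.85, and its relative Tab3 had 1 with a fold of 4.12. Map3k7, which encodes TAK1 itself, had 0, and its nearest region lay 83288 bp away.

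The adaptor gene Myd88 (ENSMUSG00000032508) had a region with a fold of 4.46 from 24 fragments (interval 15.4 to 35.7), at the 69.0 percentile (chr9:119341030-119341466). It covered the start of the transcript that the authors assigned, but lay upstream of the RefSeq start, from -1448 to -1012 bp, and an end of Acaa1a is within 1 kb. Assigned by RefSeq gene body with 1 kb on each side, Myd88 had 0 regions. Ikbkg (ENSMUSG00000004221), the regulatory subunit of the IkB kinase complex, had a region with a fold of 4.66 from 22 fragments (interval 13.8 to 33.3), at the 73.6 percentile (chrX:74429011-74429873). An end of G6pdx lies within 1 kb of it, so the assigned gene is uncertain for both. Both catalytic subunits of the complex, Ikbkb and Chuk, had 0 regions.

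Traf6, the ubiquitin ligase below MyD88, had a promoter region with a fold of 3.04 and a distal region upstream with a fold of 3.75. The kinase gene Irak2 had 1 region with a fold of 3.22. Its relatives Irak1 and Irak4 had 0, and so had Traf2 and Traf3, adaptors of TNF-family receptors. Regions in this class were thus split within families, with Irak2 against Irak1 and Irak4, and Ikbkg against its catalytic partners.

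Of the 5 inhibitors, 4 had a region in replicate 3 (80.0%), all at promoters. The folds were 3.64 and 3.59 at the 2 regions of Nfkbia, 3.93 at Nfkbib, another cytoplasmic IkB, 3.14 at Nfkbiz, a nuclear IkB, and 3.44 at Tnfaip3. Nfkbie, the remaining IkB gene, had 0, though a region assigned to Slc35b2 with a fold of 2.99 lay 662 bp from it. The Nfkbib region has an end of Sirt2 within 1 kb. None of the 5 regions reached a fold of 5.

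Of the 5 subunit genes, 3 had a region in replicate 3 (60.0%). Nfkb1 (ENSMUSG00000028163), whose product is the common partner in NF-kB dimers, had a region upstream of the assigned transcript's start (chr3:135691789-135692467) with a fold of 5.46 from 24 fragments (interval 15.4 to 35.7), at the 85.0 percentile. The same region covers the RefSeq gene start at 135691969. Its second region, downstream of both starts, had a fold of 3.68 from 27 fragments. Rel, the lymphoid subunit c-Rel, had 1 region with a fold of 4.30. Nfkb2 and Relb, the pair of the non-canonical pathway, had 0 regions, with the nearest at 15750 and 1646 bp.

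Rela (ENSMUSG00000024927), the main activating subunit of NF-kB, was the only one of the 47 genes with a region in at least 2 replicates (2.13%), and it had one in all 3. Over all coding genes, 5.43% had regions in at least 2 replicates and 0.836% in all 3. With 1 gene, these shares are no result about the pathway. The fold at Rela was 4.80 in replicate 1, 3.86 in replicate 2 and 2.89 in replicate 3, from pileups of 15 fragments (interval 8.40 to 24.7), 14 (7.65 to 23.5) and 21 (13.0 to 32.1). Folds from separate lists cannot be compared as a change between replicates. Within their own lists these folds stood at the 48.3, 43.2 and 10.1 percentile. The regions were therefore middling in replicates 1 and 2 and weak in replicate 3.

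The Rela regions were not the same stretch of promoter. Replicate 1 (chr19:5637370-5637715) and replicate 2 (chr19:5637420-5637753) overlapped by 296 bp, 88.6% of the shorter region, with summits 100 bp apart and 74 and 174 bp downstream of the assigned start. The region of replicate 3 (chr19:5637117-5637451) ended 32 bp upstream of that start, with its summit at -223 bp. It covers the RefSeq gene start at 5637442. It overlapped replicate 1 by 82 bp (24.5% of the shorter region) and replicate 2 by 32 bp (9.58%), and its summit was 297 and 397 bp from theirs. All 3 regions shared 32 bases (chr19:5637420-5637451), of which the 22 before the first transcribed base are the capitals printed above.

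Of the 7 JAK, STAT and SOCS genes, 3 had a region in replicate 3 (42.9%). Jak2 (ENSMUSG00000024789), the kinase of many cytokine receptors, had 6, the most of any of the 47 genes. Its strongest (chr19:29252113-29253909) was 1797 bp wide with 5 summits and had the highest fold of the 28 regions, 5.61 from 39 fragments (interval 27.7 to 53.3), at the 86.6 percentile. The highest summit lay 1983 bp downstream of the start. Its other 5 regions were intronic, from 13044 to 20752 bp downstream, with folds of 3.15 to 3.77.

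Jak1 (ENSMUSG00000028530), a kinase shared by interferon and interleukin receptors, had a region with a fold of 4.75 from 33 fragments (interval 22.7 to 46.3), at the 75.2 percentile (chr4:101264891-101265282). Stat3, a transcription factor that acts below interleukin receptors, had the lowest fold of the 28 regions, 2.84 at the 7.97 percentile. Stat5b, Stat6 and the feedback inhibitors Socs1 and Socs3 had 0. Kinases of the class thus held the stronger regions, and its feedback inhibitors held none in the 3 lists.

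**Figure D2:**
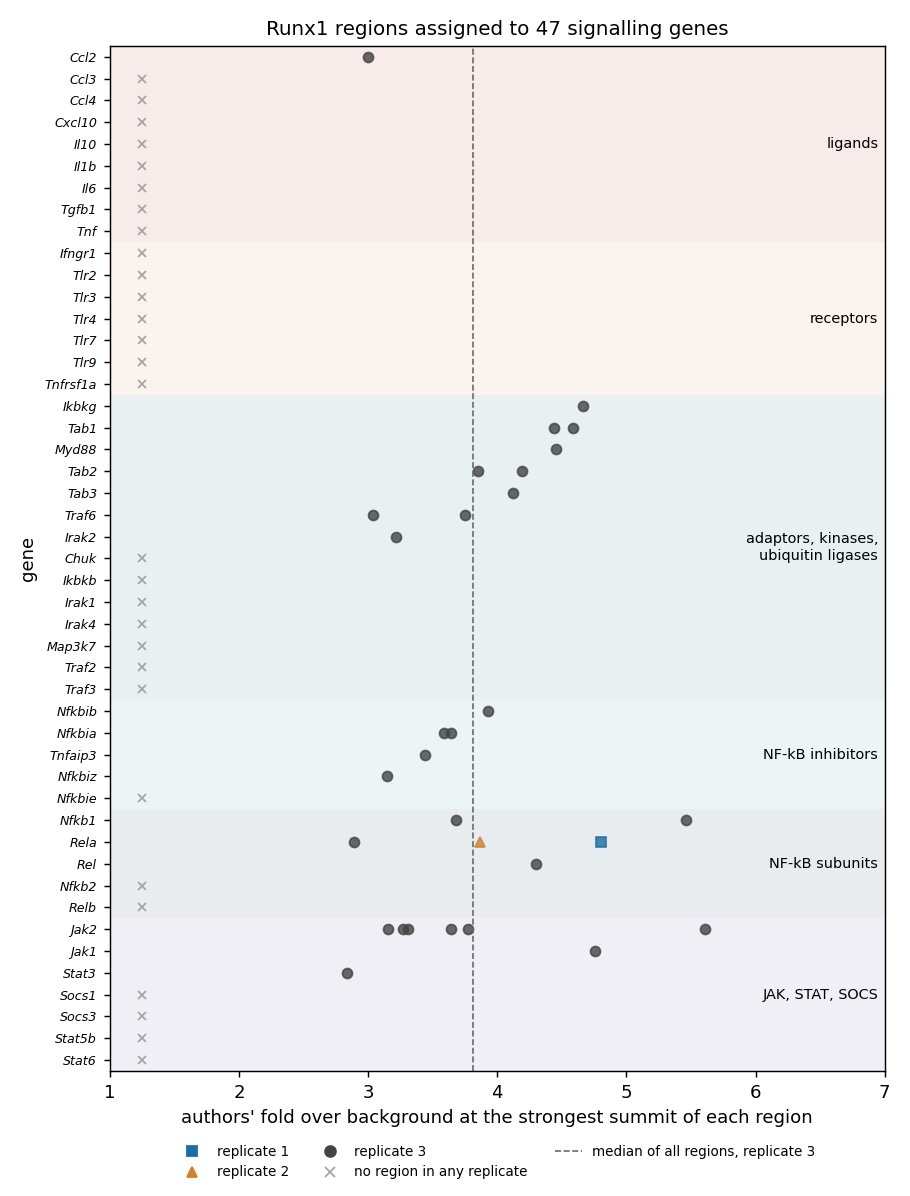
Fold over background (horizontal axis, ratio) at the strongest summit of each region assigned to the genes, 1 row per gene, with a point per region for each replicate, a cross at the left for a gene with no region (not a value) and the median of all regions of replicate 3 as a dashed line. Jak2 at 5.61 and Nfkb1 at 5.46 are the only genes past a fold of 5, and Rela is the only gene with points from more than 1 replicate.

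The regions of these genes were close to the rest of their list in fold and width. In replicate 3 their median fold was 3.72 (range 2.84 to 5.61, 28 regions), against 3.81 over all 13194 regions. Taking each gene's strongest region, the median was 4.02 over the 18 genes and 4.04 over all coding genes with a region. Of the 47 genes, 2 (4.26%) had a fold of at least 5, Nfkb1 and Jak2, against 8.49% of all coding genes. The median width was 439.5 bp against 470 bp, and 6 of the 18 genes (33.3%) had more than 1 region against 25.6% of coding genes with a region.

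Most of the regions were at promoters. By the authors' classes, 22 of the 28 (78.6%) were promoter regions no more than 1 kb from a start, against 62.6% of all regions of replicate 3, and the other 6 were the intronic regions of Jak2 and the distal region of Traf6. Each of the 18 genes had at least 1 promoter region, so the counts by class stayed at 1 of 16 and 17 of 31, against 28.4% of all coding genes with one. Of the 22 promoter regions, 13 covered the start of the assigned transcript, and summits lay downstream of it in 14 and upstream in 8. The median summit was 90 bp downstream.

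**Figure D3:**
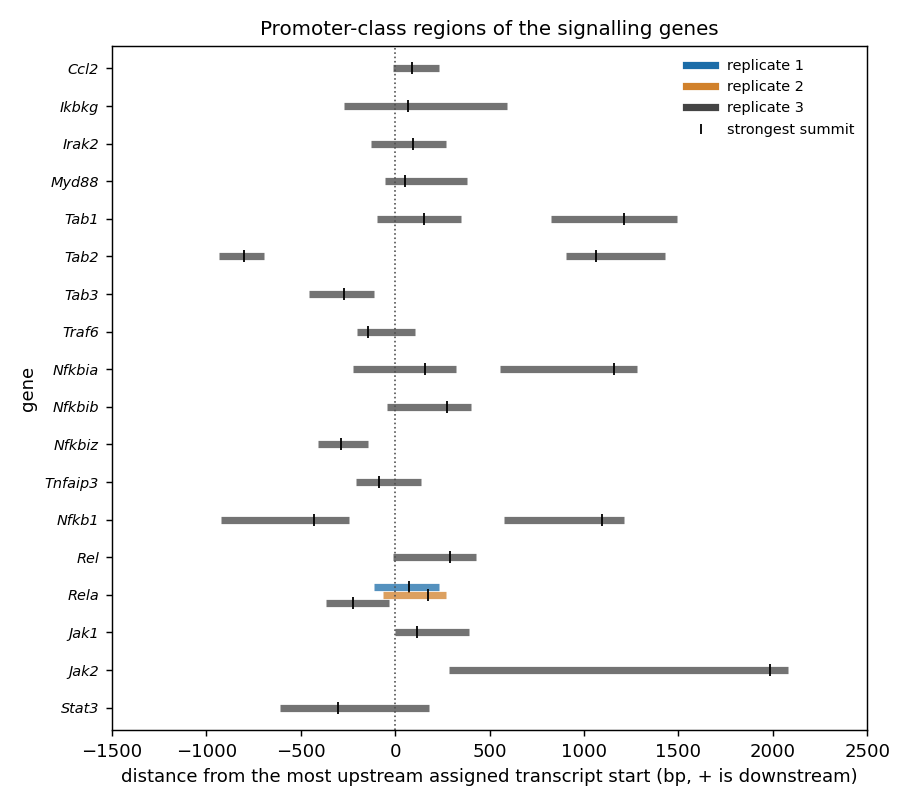
Extent of the promoter-class regions (bars) and their strongest summits (ticks), in bp from the most upstream start among the transcripts assigned to each gene, with downstream positive, coloured by replicate. At Rela the region of replicate 3 lies upstream of the assigned transcript's start while those of replicates 1 and 2 span it.

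Gene length differed between the classes, and longer genes more often had a region. Cytokine and receptor genes had a median length of 6729 bp and intracellular genes 28581 bp, against 17169 bp over all coding genes. With all coding genes cut into 4 groups of near-equal size by length, a split chosen after the data were seen, the share with a region in replicate 3 was 15.4%, 29.4%, 35.6% and 45.4% from shortest to longest. Intracellular genes had a region in 2 of 4, 3 of 6, 4 of 9 and 8 of 12 genes of these groups. Cytokine and receptor genes had 1 of 7, 0 of 5 and 0 of 4 in the shorter 3 groups and no gene in the longest. The share of intracellular genes was above that of all coding genes in each of the 4 length groups. The share of cytokine and receptor genes was near it in the shortest group, and 0 in the next 2. With so few genes in a length group, the part that length has in the contrast was not tested.

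**Figure D4:**
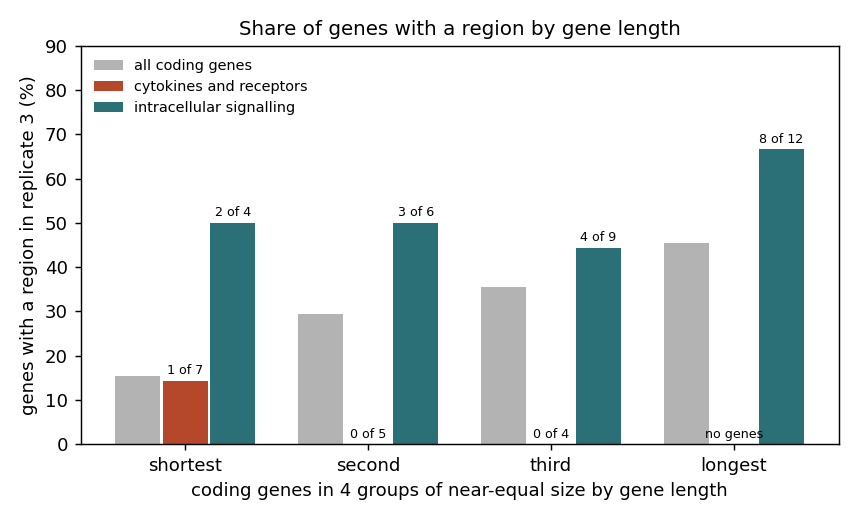
Share of genes (percent, vertical axis) with a region in replicate 3 in 4 groups of coding genes by gene length, for all coding genes and for both gene classes, with counts at the bars. Intracellular genes with a region were 8 of 12 in the longest group, which held no cytokine or receptor gene.

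Other genes of the same pathways, 142 in 6 lists, were counted by class in the same list of replicate 3. These gene lists were chosen with earlier results of these data known, so their counts are no independent support for the contrast. Of 33 further genes of NF-kB and TNF-receptor signalling, 19 had a region (57.6%), and of 20 further JAK, STAT and SOCS pathway genes 11 had one (55.0%). Of 31 further cytokine and chemokine genes 5 had one (16.1%: Il18, Il33, Csf1, Tgfb3 and Cx3cl1), and of 31 further receptor genes 9 (29.0%). Thus 30 of 53 further intracellular genes (56.6%) and 14 of 62 further cytokine and receptor genes (22.6%) had a region, so the further receptors were closer to the 31.5% of all coding genes than the 7 described above. With promoter-class regions alone, 6 of the 31 further receptor genes (19.4%) had one, against 28.4% of all coding genes. The same count was 10 of 62 (16.1%) for further cytokine and receptor genes and 27 of 53 (50.9%) for further intracellular genes. Toll-like receptors and adaptors had 7 of 18 (38.9%) and interferon regulatory factors 2 of 9 (22.2%).

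All 12 Toll-like receptor genes had 0 regions in the 3 lists, and the 7 genes that had one in the list of Toll-like receptors and adaptors were adaptors, chaperones and other helpers. They were the adaptors Ticam1 and Ticam2, the co-receptor Ly96, the chaperones Cnpy3 and Hsp90b1, and Tollip and Sarm1, which dampen the signal. With promoter-class regions alone, 5 of 18 (27.8%) had one, without Ticam2 and Sarm1, against 28.4% of all coding genes. The 3 subunits of the enzyme that builds linear ubiquitin chains on the IkB kinase complex all had a promoter region, with folds of 3.39 at Rbck1, 4.04 at Rnf31 and 4.17 at Sharpin. Both enzymes that remove such chains had weaker ones, 2.97 at Cyld and 2.85 at Otulin. Ube2n, which makes the chains read by TAB proteins, had a fold of 5.28. Its partner Ube2v1 had a fold of 2.51 at its start, at the 0.978 percentile, and 7.73 at a region that the authors placed at -2320 bp. These ubiquitin genes were singled out after their values were seen.

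Regions in at least 2 replicates were found at 6 of the 142 genes (4.23%), close to the 5.43% of all coding genes. Peli1, a ubiquitin ligase of Toll-like receptor signalling, had folds of 4.00 in replicate 2 and 8.60 in replicate 3, the latter at the 97.7 percentile. Ube2n had 3.20 and 5.28, Birc2, a ubiquitin ligase of TNF-receptor complexes, 4.20 and 3.56, and Ticam2 3.70 and 5.24 in the same replicates. Ptpn11, a phosphatase of cytokine receptor signalling, had 5.09 and 4.65. These Ptpn11 regions were of the promoter class 1 to 2 kb from a start. Both Ticam2 regions were of the 3′ UTR class, 15060 and 15199 bp downstream of the assigned start. Socs5, a feedback inhibitor, was called in replicate 1 with a fold of 4.21 and in replicate 3 with 3.14 at the same place. Each of the 6 had regions that overlapped between its replicates, and 0 of them were ligand or receptor genes.

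Counting a region in any replicate gave the same 18 of 47 genes as replicate 3 did, against 31.9% of all coding genes. Of the 18, 17 had regions in replicate 3 alone, and 29 of the 47 genes had none in the 3 lists.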

How the data were processed

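Runx1 ChIP-seq peak lists of 3 replicates of 1 group were used, called separately per replicate per the deposited files. Tools named in the submitters' processing notes were MACS2 2.1.2 with Bowtie2, Picard 2.18.26, SAMtools 1.9, FastQC and Trimmomatic 0.38, on build GRCm38. For settings and any control library, no value was given in the sources used here. Deposited lists of the authors hold, per summit, −log10 q, −log10 p, a fold that is a ratio to background, and a score (not used). Each deposited list ended near a −log10 q of 2.00. The authors' annotated tables give each region's class, assigned gene and distance to its start. Replicate 3 carries the antibody text in its tissue field and was grouped by its title.

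Regions with several summits counted once, with the fold of the strongest, and percentiles are within a list. Starts are given from 1. The pileup was solved from the fold and −log10 p under a Poisson model, with 100% of summits within 0.001 in −log10 p. Read depth is unknown, and pileup intervals cover counting error only. Genes came from RefSeq symbols on the autosomes, X and Y, with older symbols matched. The members and lists were chosen with earlier results of these data known, so no test was run on them and shares are set beside all coding genes. Named in full were genes with regions in at least 2 replicates and the 6 with the highest fold among the rest; Ccl2 was added after its values were seen, as the 1 ligand with a region. Alternatives were limits on q, fold and p, promoter class, RefSeq assignment, equal list length, other overlaps and leaving out each replicate. The count over the microglial marker list is not reported here. Scripts were tested on simulated data. Software was scipy 1.17.1, matplotlib 3.10.9, pandas 2.3.3 and numpy 2.4.6 under Python 3.11.15.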

Additional observations from a re-analysis of the deposited data

How the results depend on the processing

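The counts of 1 gene with regions in at least 2 replicates, 1 cytokine or receptor gene and 17 intracellular genes were the same with promoter-class regions alone and with regions assigned to any RefSeq gene whose body, extended by 1 kb, they overlapped. The latter lost Myd88 and gained Nfkbie, through the region assigned to Slc35b2, so the 17 genes were not the same ones. At a −log10 q of at least 5 they were 0, 0 and 13, and at a fold of at least 5 they were 0, 0 and 2. With every list trimmed to its 451 best regions by q they were 0, 0 and 1, where the 1 gene was Rela. At the lowest −log10 p of replicate 1, 6.02, a limit chosen after seeing the data, they were 1, 0 and 15. At the fold limit, the share of intracellular genes with a region in replicate 3 was below the share of all coding genes given above. At the −log10 q and −log10 p limits it stayed above the share of all coding genes. The trimmed lists left 1 gene, too few for such a comparison. The cause of the changes in these counts was not tested beyond the fewer regions that each limit leaves.

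With each replicate left out in turn there were 1 to 1 genes with regions in at least 2 replicates and 1 to 1 with overlapping regions, 0 to 1 cytokine or receptor genes and 1 to 17 intracellular genes. Without replicate 3 the last 2 counts were 0 and 1, so the contrast between classes rests on that library. The overlap at Rela also counted with 50% of the shorter region, 50% of both regions or summits within 200 bp, through replicates 1 and 2. No paired analysis was possible because the series has 1 group.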
